A study of Homo sapiens with 6 samples.

Results

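The mucin genes MUC1, MUC4, MUC5AC, MUC5B, MUC6, MUC13, MUC16 and MUC20 were taken by symbol from a table of 59962 genes, and all 8 were present in it. They were measured by RNA-seq in CFPAC-1 cells, an established human line from a pancreatic ductal adenocarcinoma. The tested cells carried a guide RNA against SULF2, either sgRNA1 (2 libraries) or sgRNA3 (2 libraries), and the control cells carried a guide against the bacterial gene LACZ (2 libraries). The labels call all 3 groups knockdowns. The sources used here state neither how the guides act nor whether a group is a clone or a pool of cells. SULF2 encodes an extracellular sulfatase that trims 6-O-sulfate groups from heparan sulfate chains at the cell surface.

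Mucins are very large glycoproteins whose middle part is made of repeats rich in serine, threonine and proline, and the serines and threonines carry dense O-linked sugar chains. Gel-forming mucins (here MUC5AC, MUC5B and MUC6) are secreted and link into polymers that make up mucus, while membrane mucins (here MUC1, MUC4, MUC13, MUC16 and MUC20) stay anchored in the cell membrane and carry signalling or adhesive regions. In the pancreas, MUC6 is known from small ducts and gland-like cells, and MUC1, MUC4, MUC5AC and MUC16 are known for their expression in ductal adenocarcinoma; the CA125 tumour marker is an epitope of MUC16.

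Values are TPM, a transcript level scaled by transcript length and to the same total in each library. Levels of different genes can be set side by side only as far as the lengths used hold for these cells. For 5 of the 8 mucin genes the deposited length equalled that of the GENCODE 29 transcript with the longest coding sequence. The deposited TPM keep no sequencing depth, so the depth is unknown. Each library listed 15563 to 15923 genes at 1 TPM or more, and its mitochondrial share was 10.3% to 11.2%. Of 8 ductal epithelial markers, 7 reached 1 TPM, with a summed level of 7574 to 7680 TPM with sgRNA1, 8231 to 8292 TPM with sgRNA3 and 8729 to 8770 TPM in LACZ. CFTR was the marker below 1 TPM in every library, and the islet hormones INS, GCG and SST were listed at 0 in all 6 libraries. Of 4 fibroblast markers 3 reached 1 TPM, with a sum of 57.9 to 60.5 TPM with sgRNA1, 37.4 to 41.6 TPM with sgRNA3 and 77.2 to 77.8 TPM in LACZ, most of it COL1A1, which fell with both guides. The acinar, leukocyte and endothelial lists each summed to under 10 TPM in every library. SULF2 itself was at 8.98 and 12.81 TPM with sgRNA1 and 10.07 and 9.24 TPM with sgRNA3, against 25.69 and 22.52 TPM in LACZ. On the log2 scale SULF2 fell by 1.09 with sgRNA1 (limma adjusted p = 0.0338) and by 1.23 with sgRNA3 (limma adjusted p = 0.0215), with an SE of 0.18 for each.

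Changes were tested with limma on log2(TPM + 1) over 16610 genes that reached 1 TPM in at least 2 libraries, with Benjamini-Hochberg adjustment over all of them and a threshold of 0.05. All 8 mucin genes entered the test. MUC6 entered only through the LACZ libraries and MUC13 only through the guide libraries, so a difference between the groups was built into both. With sgRNA1, 1 of the 8 genes fell (MUC6), where 4.31% of all tested genes fell. With sgRNA3, 2 of the 8 fell (MUC6 and MUC16), where 5.25% of all tested genes fell. MUC6 was the gene that passed with both guides, as did 2.90% of all tested genes in the lower direction. No mucin gene rose by the limma test with either guide (in each comparison 1 gene, MUC13, was higher at an unadjusted p under 0.05, where 1.69% of tested genes rose with sgRNA1 and 3.84% with sgRNA3). None passed the limma test between the guides, where 0.578% of tested genes passed, and none was below an unadjusted p of 0.05 there. The median log2 change of the 8 genes was -0.11 with sgRNA1 and -0.34 with sgRNA3, beside -0.07 and -0.05 over all tested genes. The LACZ libraries are shared, so the guides' comparisons are not independent of each other. In bulk RNA, fewer cells that express a gene and less of its RNA per cell cannot be told apart.

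**Figure D1:**
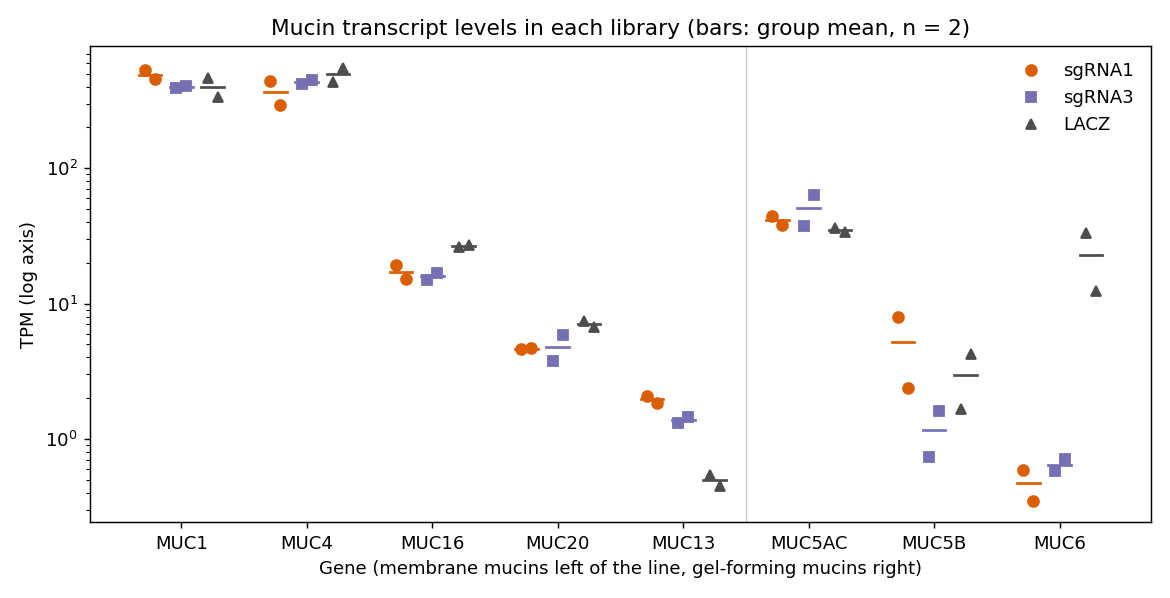
TPM of the 8 mucin genes on a log axis; each point is a library, each short bar a group mean (n = 2), with sgRNA1 and sgRNA3 left of LACZ for each gene. MUC1 and MUC4 lay at 293.35 TPM or above in all 6 libraries, while MUC6 lay below 1 TPM in the 4 guide libraries and at 12.28 and 33.12 TPM in the LACZ libraries.

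Among the gel-forming mucins, MUC6 fell to below 1 TPM with both guides. MUC6 (ENSG00000184956, chromosome 11, 1012821 to 1036706 on GRCh38, minus strand) was at 0.59 and 0.35 TPM with sgRNA1 and at 0.58 and 0.71 TPM with sgRNA3, against 33.12 and 12.28 TPM in LACZ. All 4 guide libraries were low and both LACZ libraries high, without overlap, and the LACZ libraries were themselves 2.70-fold apart. The group means were 0.470 ± 0.170 TPM with sgRNA1, 0.645 ± 0.0919 TPM with sgRNA3 and 22.7 ± 14.7 TPM in LACZ (SD, n = 2 each), which put the guides at 2.07% and 2.84% of LACZ. The fitted log2 change was -3.86 for sgRNA1 (SE 0.46, 95% interval -5.01 to -2.71, limma adjusted p = 0.0158) and -3.69 with sgRNA3 (SE 0.46, 95% interval -4.84 to -2.55, limma adjusted p = 0.0145). The guides did not differ by the test (log2 change 0.17, 95% interval -0.98 to 1.31, limma adjusted p = 0.896). The change was -3.18 with sgRNA1 and -3.01 with sgRNA3 without LACZ replicate 1, and -4.54 and -4.38 without LACZ replicate 2, and the call held in all 4 of these fits. With sgRNA1 the call was lost without sgRNA1 replicate 1 or 2 (limma adjusted p = 0.0755 and 0.0999), without sgRNA3 replicate 1 or 2 (0.0515 and 0.0519) and when only the 2 groups compared were fitted (0.0521), and with sgRNA3 it was lost without sgRNA3 replicate 1 or 2 (0.0871 and 0.0837), with a log2 change between -3.98 and -3.64 in each of these fits.

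MUC5AC, the main gel-forming mucin of airway and stomach surface cells, stayed the most abundant of the secreted mucins. MUC5AC (ENSG00000215182, chromosome 11, 1157953 to 1201138, plus strand) was at 44.26 and 38.15 TPM with sgRNA1 and 37.31 and 63.57 TPM with sgRNA3, against 36.13 and 34.03 TPM in LACZ. Every guide library was above both LACZ libraries, and the sgRNA3 libraries were the furthest apart. The log2 change did not pass with sgRNA1 (0.22, 95% interval -0.40 to 0.85, limma adjusted p = 0.628) or with sgRNA3 (0.46, 95% interval -0.16 to 1.09, limma adjusted p = 0.293).

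MUC5B, a gel-forming mucin of submucosal glands, varied widely within every group. MUC5B (ENSG00000117983, chromosome 11, 1223066 to 1262172, plus strand) was at 7.96 and 2.38 TPM with sgRNA1 and 0.73 and 1.61 TPM with sgRNA3, against 1.67 and 4.22 TPM in LACZ. The replicates were 3.34-fold apart with sgRNA1, 2.21-fold with sgRNA3 and 2.53-fold in LACZ, and the sgRNA1 and LACZ libraries overlapped. The fitted log2 change was 0.56 for sgRNA1 (SE 0.58, limma adjusted p = 0.604), -0.81 with sgRNA3 (limma adjusted p = 0.421) and -1.37 for sgRNA3 against sgRNA1 (95% interval -2.83 to 0.09, limma adjusted p = 0.348). The antisense gene MUC5B-AS1 overlaps MUC5B and was listed at 0 and 11.83 TPM with sgRNA1, 6.49 and 0 TPM with sgRNA3 and 0 in both LACZ libraries. The sources used here do not say whether the libraries keep strand, so reads of these overlapping genes cannot be told apart.

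Of the 8 mucin genes, the 3 gel-forming ones lie on chromosome 11, with 121246 bases between MUC6 and MUC5AC and 21927 bases between MUC5AC and MUC5B. MUC6 runs on the opposite strand. Their summed level was 52.81 and 40.88 TPM with sgRNA1 and 38.62 and 65.89 TPM with sgRNA3, against 70.92 and 50.53 TPM in LACZ, and the groups overlapped. The make-up of that sum did not overlap: MUC6 made up 1.12% and 0.856% of it with sgRNA1 and 1.5% and 1.08% with sgRNA3, against 46.7% and 24.3% in LACZ. MUC5AC made up 83.8% and 93.3% with sgRNA1 and 96.6% and 96.5% with sgRNA3, against 50.9% and 67.3% in LACZ. Shares of 1 sum depend on each other, so these are not a result separate from the MUC6 values.

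**Figure D2:**
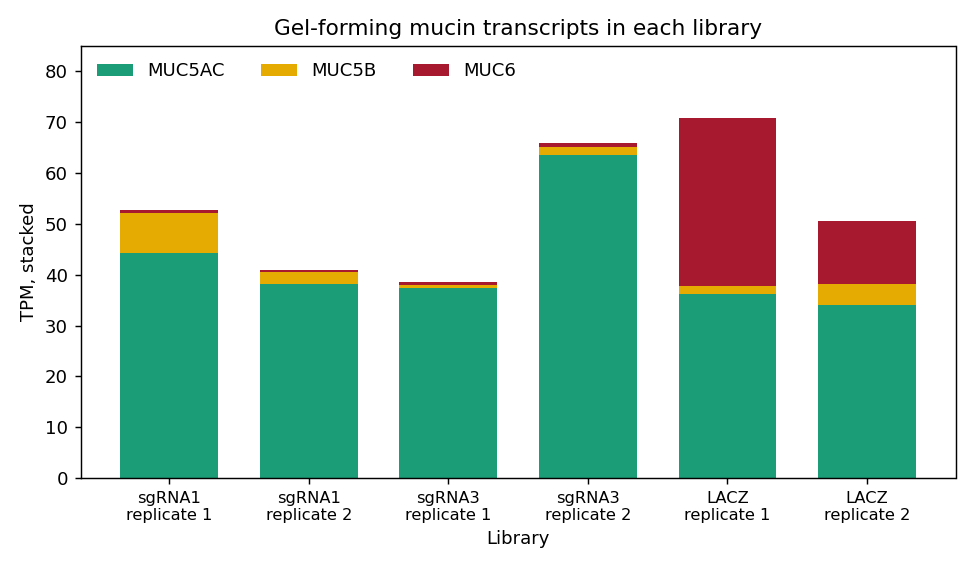
Stacked TPM of the gel-forming mucins MUC5AC, MUC5B and MUC6 in each library, with sgRNA1 and sgRNA3 left of LACZ. MUC6 is a thin top layer in the 4 guide libraries and makes up 46.7% and 24.3% of the bars in LACZ.

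The repeats that define these proteins can be read in the coding sequence, and 1 stretch of 20 codons is shown here for MUC6, the gel-forming gene that fell, and for MUC1 and MUC4, the most abundant membrane mucins. The sequences are from GENCODE 29 transcripts on GRCh38, given 5′ to 3′ on the coding strand, and capitals mark codons for serine, threonine or proline. Each is the stretch of that length with the most exact in-frame copies in its transcript, and ties went to the stretch with the most such codons.
MUC6 (chr11:1017950-1018009, minus strand): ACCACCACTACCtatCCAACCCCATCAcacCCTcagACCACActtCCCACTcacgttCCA
MUC1 (chr1:155191820-155191879, minus strand): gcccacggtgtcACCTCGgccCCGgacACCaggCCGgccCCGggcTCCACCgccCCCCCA
MUC4 (chr3:195788040-195788099, minus strand): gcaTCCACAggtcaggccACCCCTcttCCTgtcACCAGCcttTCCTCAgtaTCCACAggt
The MUC1 stretch occurred 19 times, the MUC4 stretch 12 times and the MUC6 stretch 2 times. Codons for these 3 amino acids took 14 of the 20 places in the MUC6 stretch, 10 of 20 in MUC1 and 11 of 20 in MUC4. That count helped to choose the stretches, so it does not rank the genes. Over the whole coding sequence they took 40.3% of MUC6, 44.1% of MUC1 and 48.0% of MUC4. Reads that fall wholly inside identical copies cannot be placed in 1 copy, and the sources used here do not say how such reads were counted.

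The membrane mucins MUC1 and MUC4 carried most of the mucin transcripts, 89.5% to 93.3% of the summed TPM of the 8 genes in each library. MUC1 (ENSG00000185499, chromosome 1, 155185824 to 155192916, minus strand), whose cytoplasmic tail takes part in growth factor signalling, was at 528.15 and 451.99 TPM with sgRNA1 and 392.01 and 406.63 TPM with sgRNA3, against 463.81 and 332.73 TPM in LACZ. The groups overlapped with LACZ for both guides. The log2 change was 0.31 with sgRNA1 (95% interval -0.10 to 0.73, limma adjusted p = 0.315) and 0.02 with sgRNA3 (95% interval -0.39 to 0.44, limma adjusted p = 0.946), and the sgRNA3 value lay between -0.22 and 0.26 with single libraries left out.

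MUC4 (ENSG00000145113, chromosome 3, 195746765 to 195812277, minus strand), a membrane mucin that binds the receptor ERBB2, was at 438.33 and 293.35 TPM with sgRNA1 and 421.64 and 445.56 TPM with sgRNA3, against 435.48 and 553.29 TPM in LACZ. The first sgRNA1 library and the second sgRNA3 library lay within the LACZ range, so neither guide separated from LACZ. The log2 change was -0.45 with sgRNA1 (95% interval -0.98 to 0.08, limma adjusted p = 0.263) and -0.18 with sgRNA3 (95% interval -0.71 to 0.35, limma adjusted p = 0.626). The ratio of MUC1 to MUC4 was 1.20 and 1.54 with sgRNA1 and 0.930 and 0.913 with sgRNA3, against 1.07 and 0.601 in LACZ. This ratio was above LACZ in both sgRNA1 libraries and within the LACZ range in both sgRNA3 libraries.

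MUC16, the membrane mucin that carries the CA125 epitope and binds mesothelin, was lower with both guides and passed the test with sgRNA3. MUC16 (ENSG00000181143, chromosome 19, 8848844 to 8981342, minus strand) was at 19.32 and 15.06 TPM with sgRNA1 and 15.00 and 16.85 TPM with sgRNA3, against 26.19 and 26.98 TPM in LACZ. Every guide library was below both LACZ libraries, and the LACZ libraries lay close together. The group means were 17.2 ± 3.01 TPM with sgRNA1, 15.9 ± 1.31 TPM with sgRNA3 and 26.6 ± 0.559 TPM in LACZ (SD, n = 2 each), which put the guides at 64.7% and 59.9% of LACZ. The log2 change was -0.71 with sgRNA3 (SE 0.14, 95% interval -1.05 to -0.36, limma adjusted p = 0.0412) and -0.61 with sgRNA1 (SE 0.14, 95% interval -0.96 to -0.27, limma adjusted p = 0.0670). The difference between the guides was -0.10 (95% interval -0.44 to 0.25, limma adjusted p = 0.784), so the call with sgRNA3 alone does not show that the guides differed. With sgRNA3 the call was lost without sgRNA3 replicate 1 or 2 (limma adjusted p = 0.164 and 0.123) and without LACZ replicate 1 or 2 (0.156 and 0.164), at log2 changes of -0.79 to -0.63, and also without the filter on low values (0.0881) and without the variance trend (0.0736).

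MUC20, a membrane mucin known to bind the receptor MET, lies 5641 bases from MUC4 on chromosome 3 (ENSG00000176945, 195720882 to 195741123, plus strand). MUC20 was at 4.62 and 4.68 TPM with sgRNA1 and 3.76 and 5.85 TPM with sgRNA3, against 7.46 and 6.75 TPM in LACZ. Every guide library was below both LACZ libraries, though the sgRNA3 libraries were 1.56-fold apart. The log2 change did not pass with sgRNA1 (-0.52, 95% interval -1.04 to 0.01, limma adjusted p = 0.208) or with sgRNA3 (-0.50, 95% interval -1.03 to 0.02, limma adjusted p = 0.193). MUC20 values are uncertain, because the long non-coding gene MUC20-OT1 overlaps MUC20 on the same strand at 54.39 to 93.79 TPM, a multiple of the MUC20 level in each library, and a pseudogene copy, MUC20P1, exists.

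MUC13, a membrane mucin of gut epithelium, was the mucin whose guide values were highest relative to LACZ. MUC13 (ENSG00000173702, chromosome 3, 124905442 to 124953819, minus strand) was at 2.07 and 1.85 TPM with sgRNA1 and 1.32 and 1.44 TPM with sgRNA3, against 0.54 and 0.45 TPM in LACZ. All 4 guide libraries were above both LACZ libraries, at levels near the filter of 1 TPM. The means stood at 3.96-fold LACZ with sgRNA1 and 2.79-fold with sgRNA3. The log2 change on the log2(TPM + 1) scale was 0.99 with sgRNA1 (SE 0.22, 95% interval 0.43 to 1.54, limma adjusted p = 0.0671) and 0.67 with sgRNA3 (SE 0.22, 95% interval 0.11 to 1.23, limma adjusted p = 0.125), and neither passed. Of 17 alternative fits, 1 gave a call with each guide, the limma fit without the variance trend (adjusted p = 0.0279 and 0.0421). MUC13 entered the test only through the guide libraries, so these calls are not separate support for a rise.

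Taking the 8 genes by their libraries alone, MUC6, MUC16 and MUC20 were below LACZ in all 4 guide libraries, and MUC13 and MUC5AC were above LACZ in all 4. Across all tested genes, 23.4% were below LACZ in all 4 guide libraries and 13.2% above, so such a separation is common in these data. For MUC6 and MUC13 the filter had built the separation in, so their places here are not support for a change.

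**Figure D3:**
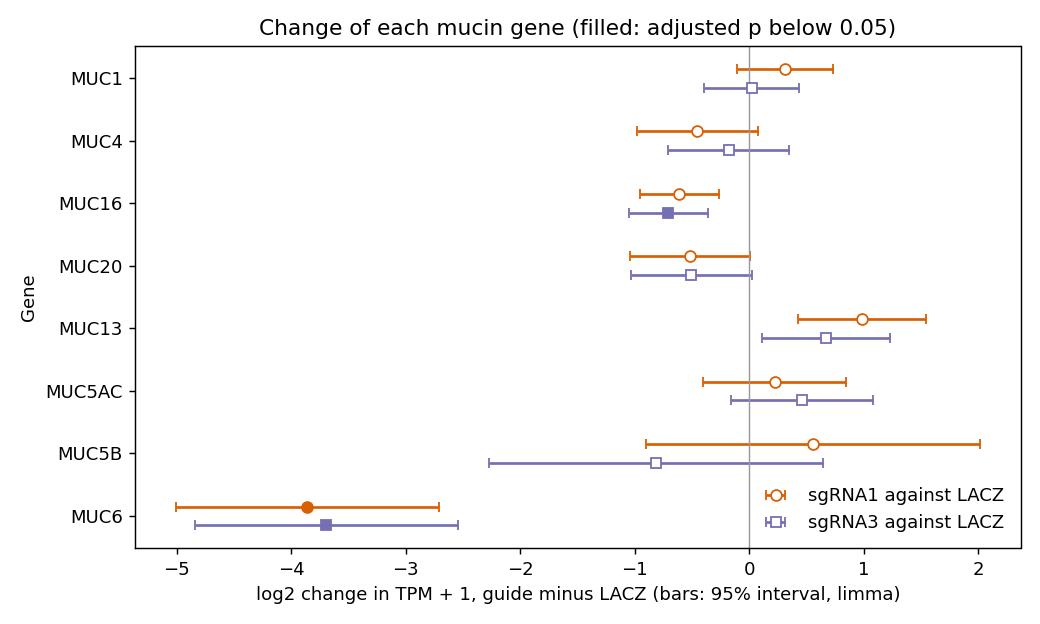
Log2 change of each mucin gene on the log2(TPM + 1) scale for sgRNA1 and sgRNA3 against LACZ, with 95% intervals from limma; filled symbols passed an adjusted p of 0.05. MUC6 stands apart at -3.86 and -3.69, and MUC16 with sgRNA3 (-0.71) is the other filled point.

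The genes whose profile over the 6 libraries was most like that of MUC6, by the root-mean-square difference of centred log2(TPM + 1) over 12285 genes, were a locus named by the authors' own assembly (MSTRG.29036, difference 0.12), the antisense gene AP001207.3 (0.35) and the pseudogene CHMP1B2P (0.38). MSTRG.29036 was listed at 0 in all 4 guide libraries, against 18.46 and 7.11 TPM in LACZ. CHMP1B2P was at 2.54 and 0.86 TPM with sgRNA1 and 0.78 and 0.65 TPM with sgRNA3, against 46.11 and 14.11 TPM in LACZ. AP001207.3 was listed at 0 in both sgRNA1 libraries and at 0 and 0.61 TPM with sgRNA3, against 36.58 and 6.37 TPM in LACZ. In all 3, as in MUC6, LACZ replicate 1 was well above LACZ replicate 2. The 3 genes were picked for likeness to MUC6 over these same libraries, so these shared features follow from the choice. MSTRG.29036 and AP001207.3, like MUC6, passed the filter only through the LACZ libraries. The genes nearest to MUC16 were GPCPD1, a glycerophosphocholine phosphodiesterase, AGO4, an Argonaute protein of small RNA pathways, and YPEL5 (differences 0.04, 0.04 and 0.05). GPCPD1 was at 7.64 and 6.01 TPM with sgRNA1 and 6.26 and 6.66 TPM with sgRNA3, against 11.33 and 11.11 TPM in LACZ. It passed with sgRNA3 (log2 change -0.71, limma adjusted p = 0.0451) and not with sgRNA1 (-0.65, limma adjusted p = 0.0656). GPCPD1 was picked for its likeness to MUC16, so sharing this outcome with MUC16 is not separate support.

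Of 26 transcription factors known to drive mucin or goblet cell genes 20 were tested, and 9 fell with sgRNA1 and 8 with sgRNA3, where 4.31% and 5.25% of all tested genes fell. The 8 that fell with sgRNA3 were among the 9 that fell with sgRNA1, and the median over the list was -0.28 for sgRNA1 and -0.38 for sgRNA3 on the log2 scale, beside -0.07 and -0.05 over all tested genes. None rose by the limma test (at an unadjusted p under 0.05, 0 were higher with sgRNA1 and 1 with sgRNA3). KLF5, a Krüppel-like factor of proliferating epithelium, was at 73.92 and 74.56 TPM with sgRNA1 and 87.31 and 88.03 TPM with sgRNA3, against 129.60 and 131.96 TPM in LACZ. Replicates lay close together, and KLF5 fell by 0.81 with sgRNA1 (limma adjusted p = 0.00163) and by 0.57 with sgRNA3 (limma adjusted p = 0.00429) on the log2 scale, with an SE of 0.04 for each. XBP1, the unfolded protein response factor that secretory cells need, was at 78.43 and 75.11 TPM with sgRNA1 and 79.05 and 80.97 TPM with sgRNA3, against 132.36 and 133.36 TPM in LACZ. XBP1 fell by 0.78 on the log2 scale with sgRNA1 (limma adjusted p = 0.00226) and by 0.72 with sgRNA3 (limma adjusted p = 0.00326). ELF3, an epithelial ETS factor, was at 92.08 and 88.76 TPM with sgRNA1 and 66.00 and 72.12 TPM with sgRNA3, against 126.91 and 131.07 TPM in LACZ. Its log2 change was -0.51 with sgRNA1 (limma adjusted p = 0.0164) and -0.89 with sgRNA3 (limma adjusted p = 0.00333). HIF1A, the oxygen-regulated factor, was at 440.64 and 413.67 TPM with sgRNA1 and 433.53 and 464.47 TPM with sgRNA3, against 631.94 and 614.03 TPM in LACZ. It fell by 0.54 with sgRNA1 (limma adjusted p = 0.00849) and by 0.47 with sgRNA3 (limma adjusted p = 0.0110) on the log2 scale. The other factors that fell with both guides, named after their values were seen, were KLF4, GATA6, SOX9 and FOXA3, and PPARG fell with sgRNA1. FOXA1 was above LACZ in all 4 guide libraries and did not pass (log2 change 0.17 with sgRNA1 and 0.29 with sgRNA3). SPDEF, the master factor of goblet cells, was below LACZ in all 4 guide libraries, as were 23.4% of all tested genes, and did not pass. The intestinal factors CDX1 and CDX2 were below the filter. These counts were 2 to 4 with sgRNA1 and 3 to 6 with sgRNA3 when any 1 of the 6 libraries was left out (sgRNA1: 3 and 2 without sgRNA1 replicates 1 and 2, 4 without either sgRNA3 library, 2 without either LACZ library; sgRNA3: 6 without either sgRNA1 library, 3 without either sgRNA3 or LACZ library). Of 7 ductal markers tested, 4 fell with sgRNA1 (KRT18, KRT19, SOX9 and CDH1) and 3 with sgRNA3 (KRT18, KRT19 and SOX9, which is also on the list of factors), beside the 4.31% and 5.25% of all tested genes that fell. KRT8 and EPCAM were above LACZ in both sgRNA3 libraries (log2 change 0.03 and 0.12) and did not pass. Their part in the result was not tested.

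**Figure D4:**
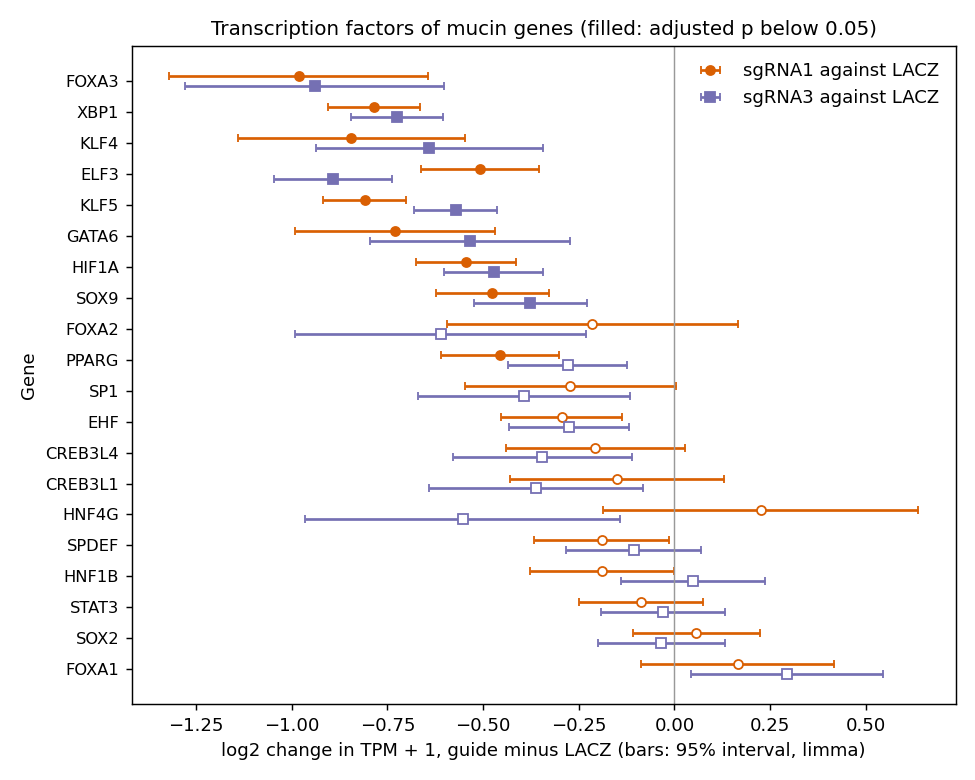
Log2 change of the 20 tested transcription factors of mucin genes on the log2(TPM + 1) scale for sgRNA1 and sgRNA3 against LACZ, with 95% intervals from limma; filled symbols passed an adjusted p of 0.05. The 8 factors that fell with both guides have both symbols filled left of 0, with KLF5 at -0.81 and -0.57.

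The promoter windows in RefSeq (GRCh38.p14; 300 bases around a transcript start) were searched on both strands for letters tied to these factors: CCACNCC for Krüppel-like factors, NACGTG for the hypoxia response element and AGATAA for GATA factors. Entries matched 4 of the 8 genes: MUC1, MUC4, MUC13 and MUC16. The MUC16 windows (chr19:9065702-9066001 and chr19:9010360-9010659) lay outside the gene span given above, 8848844 to 8981342. The MUC13 window (chr3:124934702-124935001) lay inside its gene span, away from the upstream end at 124953819. For MUC13 and MUC16 the windows are therefore not at the starts of the genes as positioned here. Motifs found or missing in them say little about the promoters of those genes. The MUC4 window is shown because it held matches to 2 of these motifs, with the matches in capitals, on the minus strand of chr3:195811880-195812179.
MUC4 promoter: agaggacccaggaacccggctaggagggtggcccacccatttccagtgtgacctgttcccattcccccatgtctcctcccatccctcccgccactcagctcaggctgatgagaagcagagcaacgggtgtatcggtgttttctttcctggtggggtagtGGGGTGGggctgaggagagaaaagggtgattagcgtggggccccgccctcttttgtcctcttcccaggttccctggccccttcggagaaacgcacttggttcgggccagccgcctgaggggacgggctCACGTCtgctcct
The Krüppel-like match began 91 bases before the transcript start and the hypoxia match 38 bases after it. Of 35116 promoter windows, 34.2% held the first motif, 21.4% the second and 10.3% the GATA letters. MUC1 windows held 2 Krüppel-like matches each, and the windows of MUC13 and MUC16 held none of these 3 motifs. AP-1 letters (TGANTCA, in 7.7% of windows) and CRE letters (GACGTCA, in 3.4%) were also searched. The MUC13 window held an AP-1 match and overlapping CRE matches on both strands. Of the MUC16 windows, the one at chr19:9010360-9010659 held an AP-1 match. The MUC1 and MUC4 windows held neither. A match is a description of letters and not evidence of binding.

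Enzymes that build the O-linked sugars of mucins were tested for 29 of 36 listed genes. With sgRNA3 4 rose, where 3.84% of all tested genes rose, and with sgRNA1 1 fell, where 4.31% fell. The median log2 change of the list was 0.08 with sgRNA3 and 0.05 with sgRNA1. GALNT5, which adds the first sugar to serine or threonine, was at 24.04 and 22.65 TPM with sgRNA1 and 25.47 and 25.84 TPM with sgRNA3, against 17.64 and 18.27 TPM in LACZ. Its log2 change was 0.49 with sgRNA3 (SE 0.08, limma adjusted p = 0.0250) and 0.36 with sgRNA1 (SE 0.08, limma adjusted p = 0.0594), and all guide libraries were above LACZ. The others that rose with sgRNA3 were GALNT1 (0.29, limma adjusted p = 0.0462) and GALNT6 (0.31, limma adjusted p = 0.0465), of the same enzyme family, and C1GALT1 (0.43, limma adjusted p = 0.0421), which makes the core 1 structure. B4GALT4, a galactosyltransferase, was at 66.87 and 57.06 TPM with sgRNA1 and 73.27 and 67.76 TPM with sgRNA3, against 95.10 and 86.01 TPM in LACZ. It fell with sgRNA1 (log2 change -0.54, limma adjusted p = 0.0438), and its change with sgRNA3 was -0.36 (limma adjusted p = 0.0885). No gene of the list passed the limma test between the guides (3 were higher and 2 lower at an unadjusted p under 0.05). No more than 1 gene of the list was called when any 1 library was left out.

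Of 22 genes for the folding, packing and release of secreted mucins, 13 were tested, and 1 rose with each guide, where 1.69% of all tested genes rose with sgRNA1 and 3.84% with sgRNA3. TFF1, a trefoil peptide secreted together with MUC5AC in the stomach, was at 28.37 and 23.91 TPM with sgRNA1 and 39.97 and 40.74 TPM with sgRNA3, against 21.79 and 17.69 TPM in LACZ. It rose with sgRNA3 (log2 change 1.0, SE 0.13, limma adjusted p = 0.0167), and with sgRNA1 its change was 0.39 (limma adjusted p = 0.148). VAMP8, a vesicle fusion protein of mucin granules, was at 194.56 and 192.05 TPM with sgRNA1 and 156.88 and 157.42 TPM with sgRNA3, against 164.21 and 158.24 TPM in LACZ. It rose with sgRNA1 (log2 change 0.26, SE 0.04, limma adjusted p = 0.0289) and not with sgRNA3 (-0.04, limma adjusted p = 0.60), and the guides did not differ by the test (-0.30, limma adjusted p = 0.0662). The TFF1 call was lost without any sgRNA3 or LACZ library, and the VAMP8 call without any 1 of the 6 libraries. AGR2, the disulfide isomerase that folds gel-forming mucins, was at 713.19 and 748.32 TPM with sgRNA1 and 834.22 and 811.31 TPM with sgRNA3, against 793.12 and 808.74 TPM in LACZ, and did not pass with either guide. The partner of MUC6 in gastric glands, TFF2, was at 37.25 and 40.77 TPM with sgRNA1 and 30.14 and 36.08 TPM with sgRNA3, against 42.43 and 38.08 TPM in LACZ, and did not pass either.

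Proteins that bind, signal through or shed membrane mucins were tested for 16 of 18 listed genes, of which 2 fell with sgRNA1 and 4 with sgRNA3, where 4.31% and 5.25% of all tested genes fell. ICAM1, an adhesion molecule that binds MUC1, was the gene that fell with both guides. It was at 20.99 and 21.20 TPM with sgRNA1 and 20.40 and 21.90 TPM with sgRNA3, against 39.41 and 44.10 TPM in LACZ, with log2 changes of -0.95 with both guides (SE 0.09, limma adjusted p = 0.00805 and 0.00752). EGFR, the growth factor receptor, was at 74.24 and 65.72 TPM with sgRNA1 and 96.33 and 99.98 TPM with sgRNA3, against 99.27 and 103.26 TPM in LACZ. EGFR fell with sgRNA1 (log2 change -0.53, limma adjusted p = 0.0218), and its change with sgRNA3 was -0.04 (limma adjusted p = 0.731), while the test between the guides gave 0.48 (limma adjusted p = 0.0856). With sgRNA3, the receptor ERBB3 (-0.56, limma adjusted p = 0.0345), the galectin LGALS1 (-0.37, limma adjusted p = 0.0298) and the protease MMP7 (-0.21, limma adjusted p = 0.0128) also fell. MMP7 was the listed gene that passed the test between the guides: it was at 1432.73 and 1433.76 TPM with sgRNA3 and 1819.51 and 1788.18 TPM with sgRNA1 (log2 change -0.33, limma adjusted p = 0.0174). That call was lost with any 1 of the 6 libraries left out, without the filter, without the variance trend, with the replicate block and with only the groups compared. ERBB2, the partner of MUC4, and MSLN, the partner of MUC16, did not pass with either guide. Both were below LACZ in all 4 guide libraries, as were 23.4% of all tested genes. With 1 library left out, the list's count was 0 to 1 with sgRNA1 and 0 to 2 with sgRNA3.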

How the data were processed

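RNA-seq libraries of CFPAC-1 cells (2 per group, 6 in all) came from RNA extracted with TRIzol, per the labels' protocols. The deposited TPM values have 2 decimals. For their making the submitters' processing notes list, with no roles, the build GRCh38 and the tools RSEM 1.3.1, HISAT2 2.1.0 and DESeq2 1.24.0. The library columns H1 and H3 were matched to sgRNA1 and sgRNA3 by guide number. DESeq2 was not used here, since TPM are not counts. The values were analysed as log2(TPM + 1) in limma 3.58.1 (R 4.3.3) with a variance trend, all 3 groups in 1 fit (3 residual degrees of freedom, 2.34 from the prior), and each p is two-sided. The test was checked on simulated data with large changes in genes above a low level, which does not cover small changes or low levels. On this scale the change of a gene with a low level is understated. Whether libraries came from separate cultures is not stated, so the p-values reflect library-to-library spread only, which may be technical; an exact test of 2 against 2 could not go below 0.333. Gene positions are from GENCODE 29.

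The mucin genes, gene lists and tests were chosen with earlier results of these data known. All 8 mucin genes are named; of each other list, up to 4 genes with the smallest p past the threshold and any gene that a count of 5 or fewer covers; and for each mucin gene past the threshold the 3 genes with the nearest profile and a group mean of at least 5 TPM. AGR2, TFF2, ERBB2, MSLN, SPDEF, FOXA1, KRT8, EPCAM and CDX genes were added after their values were seen. MUC2, MUC12, MUCL3 and the other mucins below the filter were also named outside these rules. Alternatives were pseudocounts of 0.1 and 5, other filters, scalings and fits, and each library left out.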

Additional observations from a re-analysis of the deposited data

Results flagged for a closer look

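None of the 8 mucin genes passed the limma test between the guides (none at an unadjusted p under 0.05), and 5 of the other genes named above drew attention there. MMP7, a matrix protease, was lower with sgRNA3 than with sgRNA1 by a log2 change of -0.33 (limma adjusted p = 0.0174), with both sgRNA3 libraries below and both sgRNA1 libraries above LACZ. COL1A1, the collagen chain that carried most of the fibroblast marker sum, was at 39.01 and 35.08 TPM with sgRNA3 and 57.42 and 55.51 TPM with sgRNA1, against 74.81 and 74.02 TPM in LACZ, a difference between the guides of -0.60 (limma adjusted p = 0.0463). Neither of these calls between the guides held without the filter, with the replicate block, without sgRNA1 replicate 2 or without sgRNA3 replicate 2, where no gene at all passed between the guides. VAMP8 was below LACZ in both sgRNA3 libraries and above it in both sgRNA1 libraries, but the difference of -0.30 did not pass (limma adjusted p = 0.0662). AGR2 was above LACZ in both sgRNA3 libraries and below it in both sgRNA1 libraries, and the difference of 0.17 did not pass either (limma adjusted p = 0.144). KRT8 was placed like AGR2, with a difference of 0.092 that did not pass (limma adjusted p = 0.238).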

How the results depend on the processing

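The precision behind each TPM value is unknown because the files hold no depth. MUC6 had entered the main test only through the LACZ libraries and MUC13 only through the guide libraries. Their directions and calls below are therefore not separate support for a difference. MUC6 kept its direction in all 18 alternatives against LACZ (log2 changes -5.19 to -2.23 with sgRNA1 and -4.77 to -2.18 with sgRNA3) and passed in 13 of them with sgRNA1 and 16 with sgRNA3. Its adjusted p ranged over 0.0113 to 0.0999 with sgRNA1 and 0.0123 to 0.0871 with sgRNA3. MUC16 kept its direction in all 18 against LACZ and passed in 11 with sgRNA3 (adjusted p 0.0270 to 0.164). With only the groups compared in the fit, MUC6 with sgRNA1 was at -3.86 (limma adjusted p = 0.0521), SULF2 with sgRNA1 at -1.09 (0.0825), and the number of mucin genes that fell with sgRNA1 was 0 (2 below an unadjusted p of 0.05 in the fit of all groups). With a TPM of at least 5 in place of 1, MUC16 with sgRNA1 was at -0.61 and passed (limma adjusted p = 0.0450), which made 2 mucin genes lower with sgRNA1; MUC13 and MUC5B then had no value. Without the filter, the calls were lost for MUC16 with sgRNA3 (-0.71, limma adjusted p = 0.0881), SULF2 with sgRNA1 (-1.09, 0.0768) and SULF2 with sgRNA3 (-1.23, 0.0528), leaving 1 mucin gene lower with sgRNA3. Without the variance trend they were lost for the same results (MUC16 with sgRNA3 -0.71, 0.0736; SULF2 -1.09, 0.0675 and -1.23, 0.0511), leaving 1 mucin gene lower with sgRNA3 and adding 1 higher (MUC13) with each guide. Quantile normalization put SULF2 with sgRNA1 at -0.99 (0.0530). The cause of these shifts was not tested.

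The groups share replicate numbers, but deviations of same-numbered libraries were not correlated (-0.02, 0.01 and -0.03 over 16610 genes). No strong shared replicate effect was seen. Whether same-numbered libraries were made together is not stated, and these correlations cannot tell. With a replicate block, MUC16 with sgRNA3 was at -0.71 (0.0842), SULF2 at -1.09 (0.0819) with sgRNA1 and -1.23 (0.0583) with sgRNA3, and 1 mucin gene fell with sgRNA3. The transcription factors that fell with sgRNA1 numbered 4 with the replicate block, without the variance trend or with only the groups compared. With sgRNA3 they numbered 4 with the replicate block and 5 without the filter or the trend. The block gave 377 calls over all genes with sgRNA1 and 561 with sgRNA3.

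With 1 library left out at a time, MUC6 lay between -4.54 and -3.18 with sgRNA1 and between -4.38 and -3.01 with sgRNA3. MUC16 lay between -0.78 and -0.44 with sgRNA1 and between -0.79 and -0.63 with sgRNA3. SULF2 lay between -1.33 and -0.86 with sgRNA1 and between -1.33 and -1.14 with sgRNA3. Its call with sgRNA1 was lost in all 6 of these fits (limma adjusted p = 0.0544 to 0.172) and with sgRNA3 in the 4 that left out a library of sgRNA3 or LACZ (highest 0.117). The number of mucin genes that fell was 0 to 1 with sgRNA1 and 0 to 2 with sgRNA3, and that of transcription factors 2 to 4 and 3 to 6. The sign turned for MUC5B with sgRNA1 (-0.14 to 1.26) and MUC1 with sgRNA3 (-0.22 to 0.26). Between the guides it turned for MUC4 (-0.016 to 0.56), MUC16 (-0.27 to 0.074), MUC20 (-0.25 to 0.28), MUC5AC (-0.14 to 0.62) and SULF2 (-0.38 to 0.093). MUC20 between the guides was also at -0.013 under median-of-ratios scaling.

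Over all genes, 281 rose and 716 fell with sgRNA1, and 637 rose and 872 fell with sgRNA3. Median-of-ratios scaling gave 610 and 578 with sgRNA1 and 1020 and 806 with sgRNA3. Quantile normalization gave 442 and 560 with sgRNA1. Counts of calls with sgRNA1 ranged from 150 without LACZ replicate 1 to 1356 with a TPM of at least 5. With sgRNA3 the highest count was 1826, under median-of-ratios scaling, and 1816 genes were called with a TPM of at least 5. A filter on the mean over all libraries, added after the data were seen, changed no call of a mucin gene.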

Other observations

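Of 14 further mucins and mucin-like genes, 13 were below the filter in these cells, and the sialomucin CD164 was the gene tested. CD164 was at 116.14 and 110.47 TPM with sgRNA1 and 124.68 and 119.79 TPM with sgRNA3, against 103.69 and 98.25 TPM in LACZ, and it rose with sgRNA3 (log2 change 0.27, limma adjusted p = 0.0433). MUC2, the gel-forming mucin of the intestine and a neighbour of MUC6, was at 0.03 to 0.10 TPM in the 4 guide libraries, against 0.05 and 0.10 TPM in LACZ. The length deposited for MUC2 was 393 bases, beside 17448 for MUC5AC, so this value need not stand for the full MUC2 transcript. The membrane mucin MUC12 was listed at 0.01 and 0 TPM with sgRNA1 and 0 in both sgRNA3 libraries, against 0.16 and 0.28 TPM in LACZ, and MUCL3 was at 0.18 and 0.26 TPM with sgRNA1 and 0.23 and 0.41 TPM with sgRNA3, against 0.68 and 0.53 TPM in LACZ. Neither was tested.

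Of 9 listed genes near the chromosome 11 mucins, 8 were tested. With sgRNA3, MOB2 (log2 change -0.50, limma adjusted p = 0.0380) and DUSP8 (-0.86, limma adjusted p = 0.0339), a MAP kinase phosphatase, fell, where 5.25% of all tested genes fell. None of the 8 passed the limma test with sgRNA1 (2 were lower at an unadjusted p under 0.05). Of 7 genes tested near MUC4 and MUC20 on chromosome 3, TFRC, the transferrin receptor, was the gene that rose with both guides. TFRC was at 155.01 and 147.26 TPM with sgRNA1 and 187.80 and 189.72 TPM with sgRNA3, against 119.99 and 118.94 TPM in LACZ (log2 changes 0.34 and 0.66, limma adjusted p = 0.0192 and 0.00333), where 1.69% of all tested genes rose with sgRNA1 and 3.84% with sgRNA3.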
